A study of Danio rerio with 16 samples.

Results

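The genes described here carry calcium signals inside cells: calmodulin, the kinases and phosphatase that it switches on, the channels that release calcium from the endoplasmic reticulum, and the protein kinase C family. They were chosen by name. Row names of the deposited zebrafish count table were stripped of the endings that number repeated rows, the rows of a symbol were summed, and symbols of these families were taken. Of 59 matching symbols, 56 had at least 10 counts in at least 2 libraries, out of 22259 symbols in the table that met the same minimum. The 3 that did not were camkk1b, prkcdb and ryr2b. Several rows were summed for 17 of the 56, as the table repeats some symbols.

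Brain cells of transgenic zebrafish aged 1 month were sorted by fluorescence, 8 whole brains being pooled for each replicate, and each of 4 groups gave 4 libraries. In the line Tg(76A:Gal4FF:UAS:GCaMP6s) the calcium indicator GCaMP6s was expressed for the lateral hypothalamus, and in the line Tg(116A:Gal4FF:UAS:GFP) the fluorescent protein GFP was expressed for the caudal hypothalamus. LH denotes GCaMP6s-positive and non-LH GCaMP6s-negative cells of the first line, and cH denotes GFP-positive and non-cH GFP-negative cells of the second. The comparisons ask what sets each sorted population apart from the reporter-negative brain cells of the same line. All groups carry Gal4FF and a UAS reporter. The sort follows wherever the 76A or 116A driver is active in the whole brain, so a positive cell need not be hypothalamic. The reporter differs between the lines, so line, driver and reporter cannot be told apart in any comparison of LH with cH. GCaMP6s itself contains a calmodulin domain and a calmodulin-binding peptide, and its part in the calmodulin values of LH was not tested.

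As background, calcium enters the cytosol through the plasma membrane or from the endoplasmic reticulum, through ryanodine receptors or through receptors for inositol trisphosphate (IP3). Calmodulin binds it and activates the calmodulin-dependent kinases and the phosphatase calcineurin. Phospholipase C makes IP3 together with diacylglycerol, and diacylglycerol activates the conventional kinases C, which also need calcium, and a calcium-independent class (delta, epsilon, eta and theta), while the atypical kinases need neither. In forebrain neurons, CaM kinase II and neurogranin are known for their roles at synapses.

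Libraries held 26848940 to 49350823 counts. Symbols detected ran from 19430 to 20038 in LH, 20572 to 21015 in non-LH, 13478 to 16887 in cH and 18843 to 20541 in non-cH. The cH libraries stood apart, with replicates 1 and 2 at the low end. Of the 56 genes, 53 to 54 had a count in LH, 52 to 55 in non-LH, 37 to 46 in cH and 51 to 54 in non-cH libraries. In a list of 15 pan-neuronal markers, the summed share of all counts was 0.733% to 0.805% in LH and 0.843% to 0.883% in non-LH, with 3 markers higher and 5 lower in LH. Higher were snap25a, stmn2a and map2, and lower were elavl3, elavl4, snap25b, syt1a and rbfox3a. The sum leans on elavl3, which had the largest non-LH mean (1736 CPM in LH against 2921). In cH the same list took 0.042% to 0.185%, against 0.859% to 1.05% in non-cH; 11 of the 15 were lower and nefmb was at 0 in cH. Radial glia markers took 6.05% to 9.81% in cH against 0.381% to 1.12% in non-cH, with 9 of 15 tested higher. They took 0.347% to 0.611% in LH and 0.342% to 0.669% in non-LH, where of 15 tested 1 was higher in LH (slc1a3b) and 6 were lower. Of 11 hypothalamic markers tested in LH, 1 was higher, the homeobox gene rx3, and 5 were lower, with fezf2 at 0 in LH. Gene hmx2 was at 0 in all 4 groups and was not tested. In cH 1 of 10, lhx9, was lower and 0 were higher by edgeR's adjusted p. Their summed share was 0.0389% to 0.0474% in LH against 0.0503% to 0.0744% in non-LH, and 0.0113% to 0.0543% in cH against 0.0543% to 0.0687% in non-cH. All LH libraries were thus below all non-LH libraries in this sum. Gene lhx9 weighed most in it, at 207 CPM in LH against 335, and at 2.43 in cH against 321. The sum therefore does not speak for the list as a whole. Means of isl1 and nkx2.1 were higher in both positive groups, without a call. Erythrocyte markers were lower in both positive populations, 6 of 6 tested, at 0.00483% to 0.00979% in LH against 0.172% to 0.264%, and at 1.59e-05% to 0.000916% in cH against 0.105% to 0.278%. Microglia markers took 0.0987% to 0.26% in LH and 0.0725% to 0.108% in non-LH, with 2 of 8 higher (apoeb and lcp1) and c1qa and c1qb at 0 in both; in cH they took 0.00397% to 0.065% against 0.0828% to 0.128%, with 0 of 7 called by edgeR. Oligodendrocyte markers, 0 of 10 called by edgeR in either line, took 0.16% to 1.24% in LH against 0.962% to 1.3%, and 0.0601% to 0.656% in cH against 0.771% to 1.41%. Of the endothelial markers, pecam1 was higher in LH (1 of 6 tested) and kdrl and cldn5b were lower in cH (2 of 7). Muscle markers took 0.000136% to 0.00247% in LH against 0.00118% to 0.0031%, and 9.32e-05% to 0.00329% in cH against 0.00267% to 0.00734%, with myh11a and desma lower in cH (2 of 4 tested). The part of these lists in the results was not tested. In sorted bulk RNA, fewer cells of a type and less RNA per cell cannot be told apart.

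**Figure D1:**
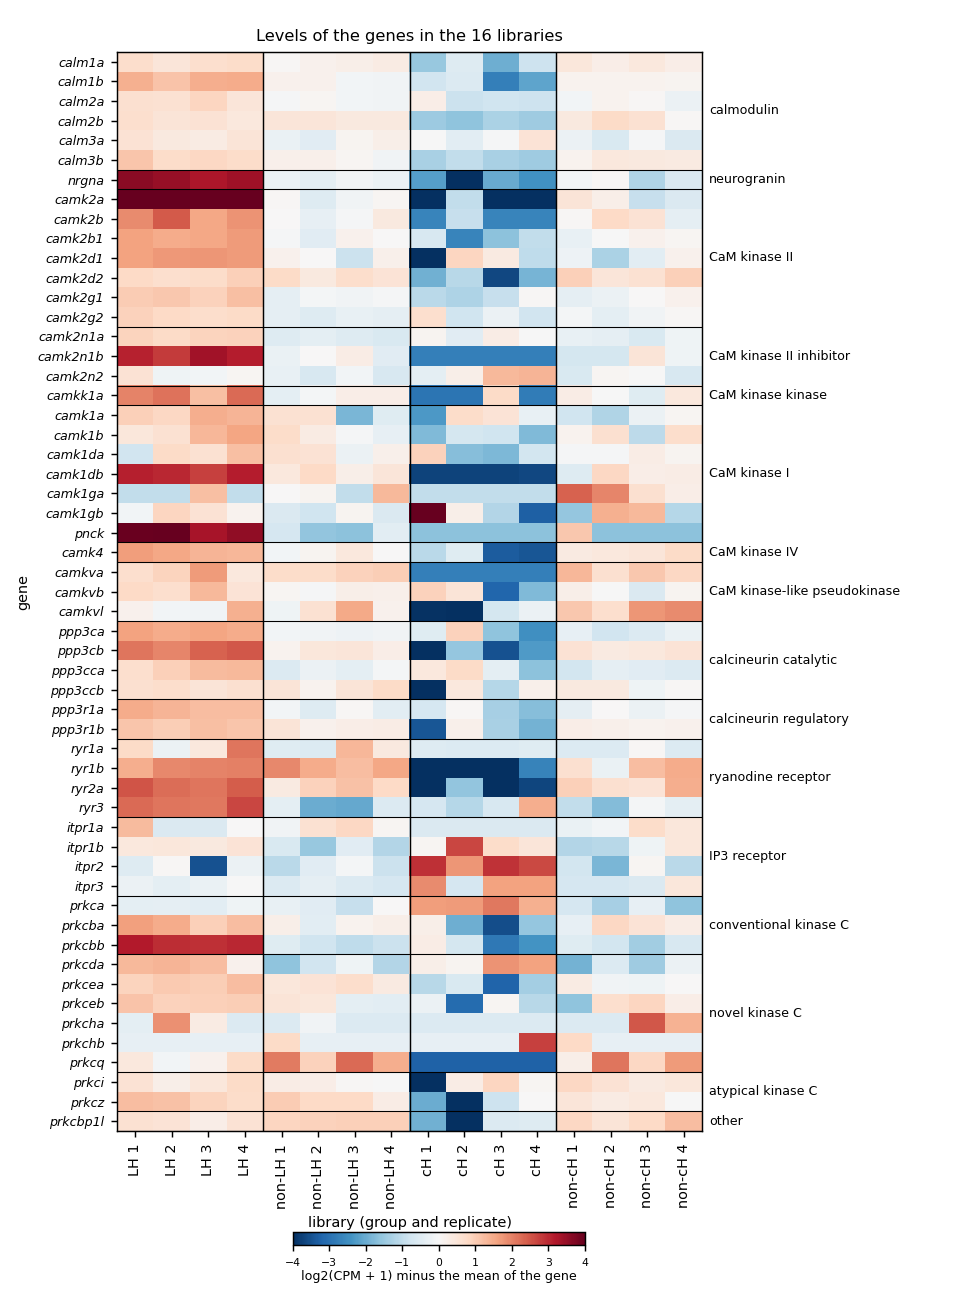
Each cell shows a gene's log2(CPM + 1) in a library, less the gene's mean over all 16 libraries; genes are in rows by family, libraries in columns by group and replicate, and colours are clipped at 4 in either direction. The 4 LH columns are the reddest for most CaM kinase II, calcineurin and calmodulin rows, while many rows are blue and uneven in cH, and itpr2 and prkca are red in all 4 cH columns.

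Levels are given as CPM, counts scaled to a common library size with TMM factors. A difference is a log2 fold change ± standard error (SE) from edgeR's quasi-likelihood test, and a gene is called where the adjusted p, over all genes tested, is under 0.05.

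In LH cells more of the set was called higher than lower. Of 53 genes that passed the filter on low counts, 30 rose (56.6%) and 2 fell, against 7.14% higher and 6.24% lower among all 18674 genes tested, or 13.4% in either direction. The median log2 difference was 1.03 over the 53 and -0.01 over all genes. LH and non-LH libraries did not overlap for 35 of the 56, against 22.0% of all genes tested. By family, the genes that rose were 4 of 6 for calmodulin, 6 of 7 for CaM kinase II, 2 of 3 for its inhibitors, 2 of 7 for CaM kinase I, the single genes of CaM kinase IV, CaM kinase kinase and neurogranin, 1 of 3 for the CaM kinase-like pseudokinases, 5 of 6 for calcineurin, 2 of 4 for the ryanodine receptors, 1 of 3 for the IP3 receptors and 4 of 10 for kinase C, where 1 fell. With all 16 libraries in the model, which then share an estimate of spread, 11 genes were called, all of them higher and all among the 32, against 1.67% of all genes. These were calm3b, camk1db, camk2b1, camk2g1, camk2g2, camk2n1a, camk2n1b, nrgna, ppp3r1a, prkcbb and ryr3. The other 21 had edgeR adjusted p from 0.0826 to 1 in that model, camk2a, pnck, camk4, ryr2a and 3 calmodulin genes among them.

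Among the calmodulin genes, which in vertebrates encode the same or nearly the same protein, 4 of 6 rose in LH. Gene calm1b was at 342, 281, 346 and 353 CPM in LH replicates 1 to 4, and at 144, 144, 118 and 115 in non-LH. Its log2 difference of 1.34 ± 0.12 was the highest of the 6 (edgeR adjusted p = 7.63e-05). Gene calm3b stood at 3093, 2376, 2545 and 2363 CPM in LH and at 1642, 1655, 1504 and 1313 in non-LH, a log2 difference of 0.76 ± 0.11 (edgeR adjusted p = 0.00118). In both genes every LH library was above every non-LH library. Gene calm2a had 429, 423, 496 and 389 CPM in LH and 267, 291, 256 and 251 in non-LH (log2 0.71 ± 0.09, edgeR adjusted p = 0.000889). For calm1a the levels were 571, 494, 557 and 581 in LH and 363, 396, 410 and 439 in non-LH (log2 0.45 ± 0.09, edgeR adjusted p = 0.00685). These groups did not overlap either, but the steps were smaller. Gene calm3a, at 60.4, 52.8, 50.5 and 58.4 CPM against 33.2, 29, 43.1 and 47.6, did not overlap and missed the threshold (edgeR adjusted p = 0.0978). Gene calm2b, at 1087, 975, 1033 and 923 CPM against 957, 953, 906 and 906, overlapped (log2 0.11 ± 0.07, edgeR adjusted p = 0.393).

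Neurogranin, a neuronal protein that binds calmodulin when calcium is low, is encoded by nrgna. It was at 226, 209, 174 and 192 CPM in LH, and at 14.9, 13.2, 16 and 14.4 in non-LH. All LH libraries were far above all non-LH libraries, by 13.7-fold in the means (log2 3.77 ± 0.14, edgeR adjusted p = 4.57e-07).

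**Figure D2:**
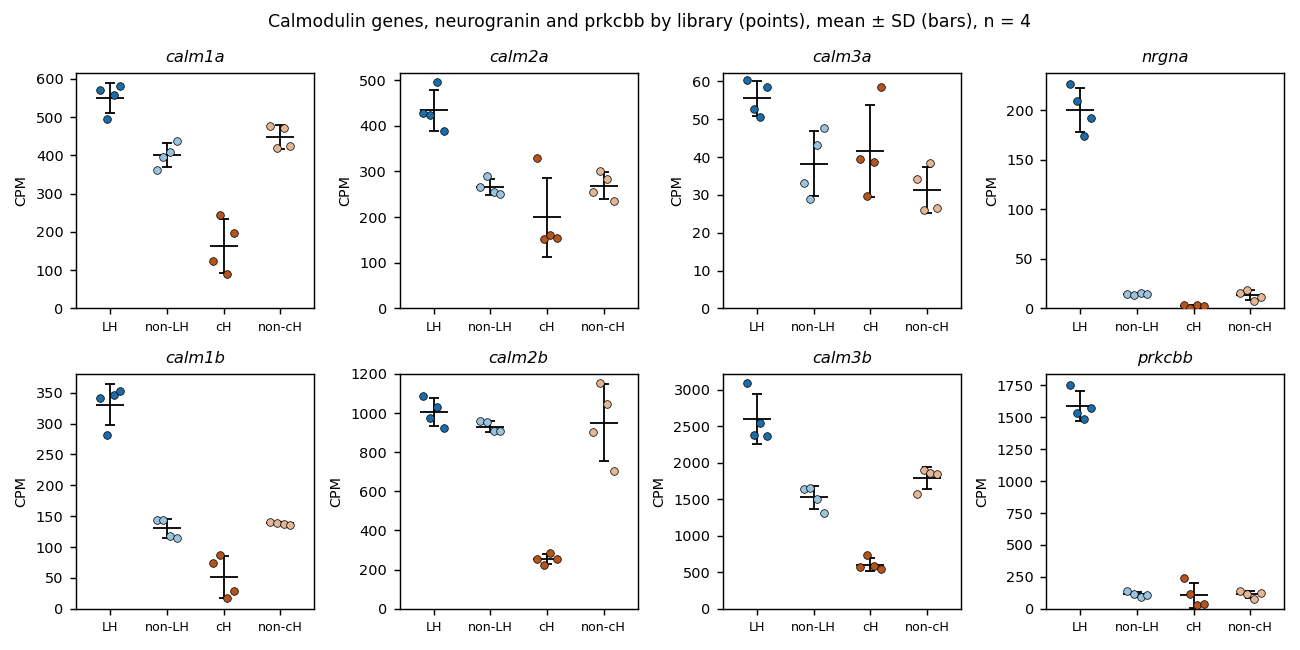
CPM of the 6 calmodulin genes, nrgna and prkcbb (linear axes from 0), with a point for each of 4 libraries per group and bars for mean ± SD. LH points lie above non-LH points in all panels but calm2b, where they overlap; nrgna and prkcbb are near 200 and 1588 CPM in LH and at 14.6 and 114 in non-LH on average.

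CaM kinase II is a large holoenzyme built from subunits of several genes, and 6 of its 7 genes rose in LH. The alpha subunit gene camk2a was at 1264, 1524, 1426 and 1506 CPM in LH, and at 61.3, 41, 54.3 and 63.1 in non-LH. The means differed 26-fold, with the LH libraries close together (log2 4.70 ± 0.15, edgeR adjusted p = 3.72e-07). In the model of 16 libraries its log2 difference was 4.66 ± 1.25 and the adjusted p 0.0868. The beta subunit genes followed: camk2b was at 22.1, 32.7, 17.3 and 20.6 CPM in LH and at 5.31, 3.98, 5.06 and 7.06 in non-LH (log2 2.11 ± 0.31, edgeR adjusted p = 0.00142). LH means of camk2b1, camk2d1, camk2g1 and camk2g2 were 792, 93.1, 365 and 379 CPM, against 251, 26.9, 157 and 168 in non-LH, with log2 differences from 1.18 to 1.79 and no overlap. The exception was the delta subunit gene camk2d2, whose 305 ± 27.2 CPM (SD, n = 4) stood beside 268 ± 30.6 in the negative cells (edgeR adjusted p = 0.338).

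Of the genes for the small CaM kinase II inhibitor proteins, camk2n1b and camk2n1a rose. Gene camk2n1b was at 54.7, 44.7, 66 and 56.6 CPM in LH and at 4.5, 5.65, 7.08 and 3.8 in non-LH, a 10.6-fold difference of means (log2 3.40 ± 0.26, edgeR adjusted p = 3.16e-05). Gene camk2n1a was at 479 ± 21.1 against 184 ± 12 CPM (SD, n = 4; log2 1.38 ± 0.08). The kinase and its inhibitors were thus higher in the same libraries. Gene camk2n2, at 55.5 ± 14.2 against 38.3 ± 7.47 CPM, was not called (edgeR adjusted p = 0.158).

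The kinase cascade runs from CaM kinase kinase to CaM kinases I and IV, the latter a nuclear kinase of transcription factors. The kinase kinase gene camkk1a averaged 29 ± 8.66 CPM in LH against 6.87 ± 1.66 (SD, n = 4; log2 2.08 ± 0.32, edgeR adjusted p = 0.00192). CaM kinase IV, camk4, was at 642, 582, 520 and 500 CPM in LH and at 184, 216, 268 and 204 in non-LH (log2 1.36 ± 0.13, edgeR adjusted p = 0.000127). Both were higher in every LH library. In the CaM kinase I family 2 of 7 were called. Gene pnck, for the pregnancy-upregulated kinase also called CaM kinase I beta, was at 47.4, 49.2, 30.1 and 35.5 CPM in LH, and at 0.989, 0.0483, 0 and 1.32 in non-LH. Outside LH it was near 0, apart from 5.68 CPM in non-cH replicate 1. Its means differed 68.9-fold (log2 6.11 ± 1.04, edgeR adjusted p = 0.00374). The delta isoform gene camk1db was at 112, 104, 86.2 and 114 CPM in LH and at 16.6, 21.6, 14.4 and 17.3 in non-LH (log2 2.57 ± 0.18, edgeR adjusted p = 1.74e-05). The other members, camk1a, camk1b, camk1da, camk1ga and camk1gb, had log2 differences from -0.74 to 1.28 and were not called. Of the genes for the pseudokinase CAMKV, camkvb passed (44.9 ± 11.5 against 26.5 ± 2.48 CPM, edgeR adjusted p = 0.0369) and camkva and camkvl did not. The call of camkvb ended when any of 6 of the 8 libraries was left out, with edgeR adjusted p up to 0.112 (without non-LH replicate 2).

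Calcineurin, the calcium-activated phosphatase, pairs a catalytic with a regulatory subunit. Catalytic subunit gene ppp3ca was at 266, 247, 260 and 246 CPM in LH and at 81.1, 78.4, 75.1 and 79.6 in non-LH. This was among the tightest separations of the set (log2 1.70 ± 0.09, edgeR adjusted p = 3.55e-06). Gene ppp3cb had 451, 399, 533 and 573 CPM in LH and 113, 139, 142 and 122 in non-LH (log2 1.93 ± 0.13, edgeR adjusted p = 1.95e-05). Gene ppp3cca rose to 130 ± 25.3 from 49.9 ± 7.31 CPM, while ppp3ccb was at 37.6 ± 2.24 and 34.3 ± 6.31 (SD, n = 4; edgeR adjusted p = 0.747). Both regulatory subunit genes were higher: ppp3r1a with a log2 difference of 1.56 ± 0.13 and ppp3r1b with 0.77 ± 0.10.

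Among the release channels, the ryanodine receptor gene ryr3 was at 47.7, 42.9, 42 and 62.3 CPM in LH and at 6.59, 1.55, 1.43 and 5.92 in non-LH. The means differed 12.6-fold with no overlap (log2 3.65 ± 0.54, edgeR adjusted p = 0.00155). Gene ryr2a was at 216 ± 26 against 76.2 ± 17.2 CPM (SD, n = 4; log2 1.51 ± 0.17). For ryr1a and ryr1b, known best from skeletal muscle, the log2 differences of 1.16 ± 1.57 and 0.30 ± 0.19 were not called. Of the IP3 receptor genes, itpr1b was at 39.5, 40.8, 38.4 and 43 CPM in LH and at 18.8, 9.71, 21.3 and 12.6 in non-LH (log2 1.37 ± 0.26, edgeR adjusted p = 0.00697). Gene itpr2 was at 18.4, 27.5, 1.51 and 22.9 CPM in LH and at 12.2, 19.5, 25.6 and 14.4 in non-LH, which overlap. Gene itpr1a stayed under 3 CPM in both groups, at 2.6, 0, 0 and 0.522 against 0.36, 1.28, 1.64 and 0.582, and itpr3 was too low to test.

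Of the conventional kinase C genes, prkcbb was at 1756, 1532, 1491 and 1574 CPM in LH and at 139, 112, 95.9 and 108 in non-LH, a 14-fold difference of means (edgeR adjusted p = 3.72e-07). Its copy prkcba was at 35.3, 31.5, 21.5 and 26.7 CPM in LH and at 12.7, 7.8, 11.8 and 12.8 in non-LH (log2 1.35 ± 0.26, edgeR adjusted p = 0.0067). Both beta isoform genes were thus higher in every LH library. The alpha isoform gene prkca, at 27.2 ± 2.1 against 26.5 ± 7.2 CPM, was not called (SD, n = 4). In the calcium-independent class, the delta gene prkcda rose from 24.4 ± 11.1 to 94 ± 30.1 CPM (log2 1.95 ± 0.36, edgeR adjusted p = 0.00594), and the epsilon gene prkcea rose by 0.52 ± 0.12. The theta gene prkcq went the other way, at 11.6, 7.68, 9.54 and 15 CPM in LH and 38.2, 16.9, 44.4 and 24.9 in non-LH. All LH libraries were below all non-LH libraries (log2 -1.51 ± 0.35, edgeR adjusted p = 0.0177). Gene prkceb was not called (edgeR adjusted p = 0.0826), and the eta genes prkcha and prkchb were too low to test. The atypical genes prkci and prkcz had log2 differences of 0.37 ± 0.14 and 0.27 ± 0.18 and were not called. The other lower gene was prkcbp1l, which the name pattern takes in although it encodes no kinase C, at 96.8, 93.5, 76.1 and 95.6 against 115, 121, 123 and 125 CPM (log2 -0.42 ± 0.11, edgeR adjusted p = 0.0378). The calls of prkcea, prkcq and prkcbp1l ended in 2, 2 and 6 of the 8 fits that left out a library, with edgeR adjusted p up to 0.0595, 0.0514 and 0.0831.

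**Figure D3:**
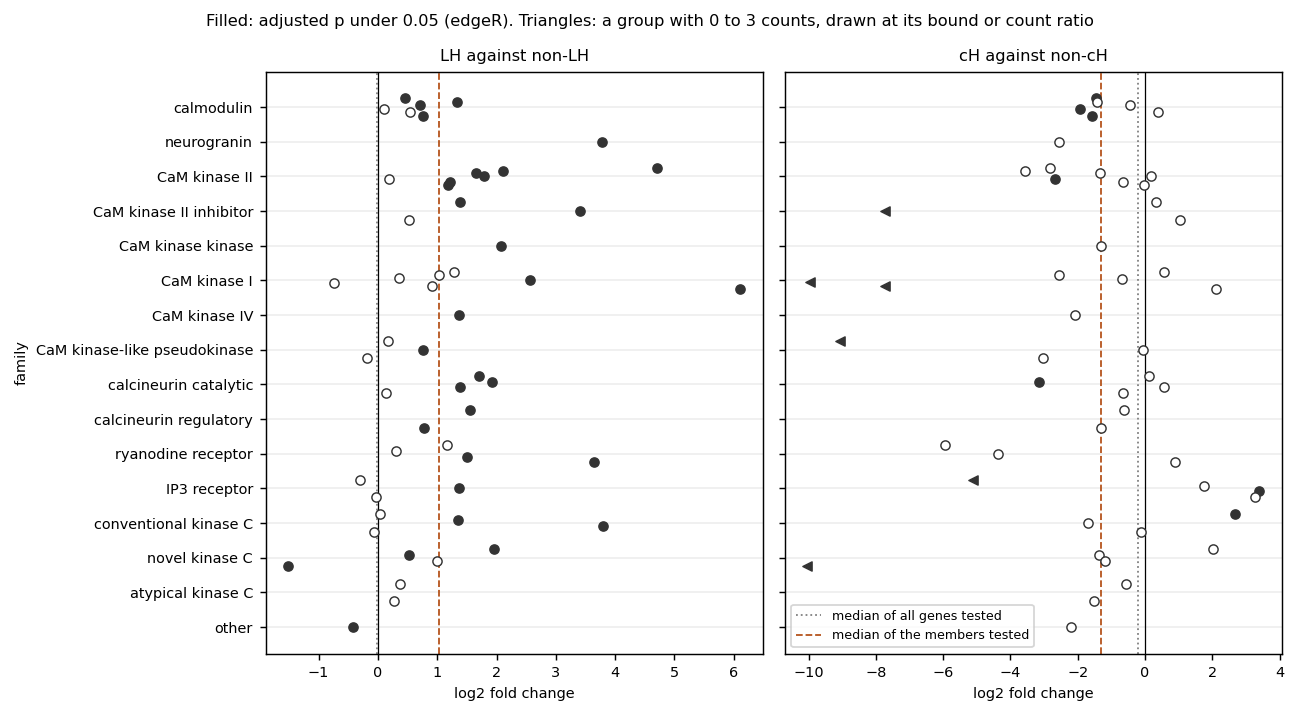
Log2 fold changes of the members tested, by family, for LH against non-LH (left, 53 genes) and cH against non-cH (right, 51 genes); filled symbols have an edgeR adjusted p under 0.05 and triangles mark genes with 0 to 3 counts in a group, drawn at their bound or count ratio. The dashed median of the members lies at 1.03 on the left and at -1.30 on the right, and the dotted median of all genes at -0.01 and -0.20.

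In cH cells fewer of the set were called than in LH by the pairwise fits. Of 51 genes that passed the filter, 2 rose (3.92%), 11 fell (21.6%) and 38 were not called. Among all 17265 genes tested, 5.05% were higher and 6.85% lower, or 11.9% in either direction. The share that rose was thus near that of all genes. Genes prkcq, camkva, camk1db, camk2n1b, camk1ga and itpr1a, at or near 0 in cH, passed the filter only through non-cH. Among the genes that fell, these could only be called lower, so their direction is no added support. The median log2 difference was -1.30 over the 51, also with the 5 called genes that were at 0 in cH set to their bounds, and -0.20 over all genes. Groups did not overlap for 25 of the 56, against 27.5% of all genes. Beside these counts stand the marker shares given above, and their part in them was not tested. Calls moved with the libraries used, in the set as in all genes: 8 were called without non-cH replicate 2, 3 or 4, against 4.63%, 4.93% and 4.31% of all genes, and 20 without cH replicate 2, against 14.6%. With cH replicates 1 and 2 set aside, 28 were called, 24 of them lower, against 18.8% of all genes, and 12 of the 13 were among them. That fit keeps only cH replicates 3 and 4. With all 16 libraries in the model 23 were called, all 13 among them, against 20.4% of all genes. In that model LH had 11 calls, against 1.67% of all genes, so which population has more calls depends on the model. The cH libraries tended to spread most, so a shared estimate of spread fits neither line well. With it the share of all genes called rose from 11.9% in cH and fell from 13.4% in LH. A cH call made by that model alone is therefore no added support for a difference.

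The genes that rose in cH were itpr2 and prkca. The IP3 receptor gene itpr2 was at 209, 94.3, 205 and 171 CPM in cH and at 15.6, 6.79, 28.5 and 12.2 in non-cH. The means differed 10.8-fold, and every cH library was far above every non-cH library (log2 3.40 ± 0.51, edgeR adjusted p = 0.00563). Gene prkca was at 111, 114, 152 and 94.8 CPM in cH and at 21.4, 13, 27.3 and 10.6 in non-cH (log2 2.68 ± 0.40, edgeR adjusted p = 0.00503). Both calls were kept in every fit that left out a library. Gene prkcda was at 51.3, 47.5, 156 and 137 CPM in cH and at 11, 29.8, 15.8 and 37.4 in non-cH. These groups did not overlap, but the call was missed (log2 2.02 ± 0.58, edgeR adjusted p = 0.0591). In the IP3 receptor family, itpr1b was at 31.1, 191, 49.1 and 41.6 CPM against 12.4, 13, 26 and 40.2 (edgeR adjusted p = 0.196), and itpr3 at 3.1 ± 2.13 against 0.312 ± 0.581 (SD, n = 4; edgeR adjusted p = 0.511). The fourth, itpr1a, was undetected in every cH library, against 0.252, 0.392, 1.47 and 1.05 CPM in the negative cells, so that it was lower by at least 34.9-fold (edgeR adjusted p = 0.0216). Its call ended with cH replicates 1 and 2 set aside (edgeR adjusted p = 0.0746) and without non-cH replicate 4 (0.0682), and without non-cH replicate 2 or 3 it was too low to test. Nor was itpr1a called without the filter on low counts or with rows as deposited.

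Several genes for kinases, a pseudokinase and a kinase inhibitor were undetected or nearly so in cH. They passed the filter only through non-cH, so a lower call was the only one open to them. Gene prkcq gave no count in any cH library, while the non-cH libraries showed 10, 40.6, 15.5 and 29.2 CPM, a fall of at least 1050-fold (edgeR adjusted p = 0.00767). The pseudokinase gene camkva likewise gave none, against 15.5, 9.19, 13 and 10.6 CPM, lower by at least 533-fold (edgeR adjusted p = 0.0102). Gene camk1db was at 0, 0, 0 and 0.0451 CPM in cH, 2 counts in all, and ran from 8.25 to 22.1 in non-cH (15 ± 5.68, SD, n = 4). Its ratio of scaled counts was 1001, with an exact 95% binomial interval from 277 to 8268 (edgeR adjusted p = 0.00798). Also undetected in cH were camk2n1b, which averaged 4.85 ± 2.51 CPM in the negative cells (a fall of at least 214-fold), and camk1ga, which averaged 4.81 ± 3.73 (at least 212-fold; SD, n = 4). Bounds are against a floor of 3 counts over the 4 libraries and, like the interval, cover counting error only. Many low counts in the table are even, and if each read of a pair had added a count these bounds would be too high. The calls of camk2n1b and camk1ga ended without non-cH replicate 2, 3 or 4, with edgeR adjusted p up to 0.0526 and 0.0608.

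Of the 6 calmodulin genes 3 fell in cH. Gene calm2b was at 252, 222, 285 and 256 CPM in cH and at 902, 1155, 1044 and 705 in non-cH (log2 -1.93 ± 0.19, edgeR adjusted p = 0.00125). Gene calm3b was at 577, 730, 579 and 538 CPM in cH and at 1573, 1903, 1864 and 1846 in non-cH (log2 -1.59 ± 0.16, edgeR adjusted p = 0.00131). For both, the cH libraries were close together and far below non-cH. Gene calm1a was at 123, 244, 90.2 and 198 CPM against 477, 420, 472 and 424 (log2 -1.47 ± 0.31, edgeR adjusted p = 0.0182), and this call ended without non-cH replicate 2, 3 or 4 (up to 0.0537). Gene calm1b, at 74.1, 87.1, 18 and 28.4 CPM against 140, 139, 138 and 136, did not overlap but was not called (edgeR adjusted p = 0.126). It passed with cH replicates 1 and 2, its highest, set aside (edgeR adjusted p = 0.00149) and in the model of 16 libraries (0.0124). The former fit keeps only cH replicates 3 and 4, and the latter shares an estimate of spread across groups, so neither adds support. Gene calm2a, at 330, 152, 160 and 155 CPM against 256, 302, 284 and 235, overlapped only through cH replicate 1, and passed without it (edgeR adjusted p = 0.0229). That fit drops the library that went the other way, so it adds no support. Gene calm3a, at 39.5, 29.6, 38.7 and 58.6 CPM against 34.2, 26, 38.4 and 26.5, overlapped.

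In CaM kinase II, camk2d2 was called: 45.4, 81.1, 13.1 and 47.4 CPM in cH against 340, 249, 269 and 340 in non-cH (log2 -2.69 ± 0.50, edgeR adjusted p = 0.0128). Gene camk2a was at 0.124, 29.9, 0.0728 and 1.87 CPM in cH and at 84.9, 70.3, 30.7 and 39.4 in non-cH. The groups did not overlap, yet the cH libraries spread so far that the test missed the threshold (log2 -2.82 ± 1.65, edgeR adjusted p = 0.408). Without cH replicate 2, its highest cH library, the log2 difference was -6.32 ± 1.37 (edgeR adjusted p = 0.023). A fit that drops the highest library adds no support for a fall. The remaining subunit genes, camk2b, camk2b1, camk2d1, camk2g1 and camk2g2, had log2 differences from -3.56 to 0.17 and were not called, nor were the inhibitor genes camk2n1a and camk2n2, at 0.34 and 1.04. Gene camk4, at 93.5, 143, 19.1 and 17.7 CPM against 256, 267, 279 and 343, did not overlap and was not called (edgeR adjusted p = 0.102). It passed with cH replicates 1 and 2, its highest, set aside (edgeR adjusted p = 0.000283), without cH replicate 2 (0.0317) and in the model of 16 libraries (0.00984). These fits carry the limits given for calm1b and camk2a. Gene nrgna, at 3.04, 0, 3.6 and 2.48 CPM against 16.1, 18.2, 7.06 and 11.4, did not overlap (edgeR adjusted p = 0.382; 0.0308 in the model of 16 libraries).

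Of the calcineurin genes, ppp3cb fell, at 2.58, 34.1, 8.3 and 20.6 CPM in cH and 153, 130, 138 and 149 in non-cH (log2 -3.14 ± 0.72, edgeR adjusted p = 0.0231). Its call ended in 6 of the 8 fits that left out a library: without cH replicate 3 or 4 or any non-cH library, at edgeR adjusted p up to 0.0593. Gene ppp3ca was at 68 ± 69.1 CPM in cH, with 167 in replicate 2, and at 62.8 ± 10 in non-cH (SD, n = 4). Its log2 difference of 0.11 ± 0.69 became -1.54 ± 0.36 with cH replicates 1 and 2 set aside (edgeR adjusted p = 0.0288). That fit drops its highest cH library, replicate 2, so it is no support for a fall. The ryanodine receptor gene ryr2a was at 0, 13.6, 0 and 2.37 CPM against 82.1, 66.4, 61.4 and 116, and ryr1b at 0.062, 0, 0 and 3.11 against 39.6, 20.9, 60.1 and 72.8. Neither overlapped and neither was called (edgeR adjusted p = 0.225 and 0.109). The model of 16 libraries called both (edgeR adjusted p = 0.0244 and 0.00452), with the limit of its shared spread given above. Gene ryr3, at 5.34, 3.51, 5.46 and 26.3 CPM against 4.06, 1.98, 8.44 and 6.61, overlapped, as did prkcbb, at 238, 119, 26.2 and 36.6 against 139, 116, 74.7 and 126, and prkcba, at 12.7, 2.02, 0 and 3 against 8.25, 19.7, 15.9 and 13.2. Of the other kinase C genes tested, prkcea, prkceb, prkci and prkcz had log2 differences from -1.53 to -0.56 and were not called. Gene prkcbp1l, at 16, 0, 43.1 and 44.2 CPM against 113, 90.4, 110 and 151, did not overlap and was not called (edgeR adjusted p = 0.429). The rest of the calcineurin genes, ppp3cca, ppp3ccb, ppp3r1a and ppp3r1b, lay between -1.30 and 0.55, and the remaining kinases and pseudokinases, camk1a, camk1b, camk1da, camk1gb, camkk1a, camkvb and camkvl, between -3.04 and 2.11, with 0 calls by edgeR. Genes pnck, prkcha, prkchb and ryr1a were too low to test. For prkcbb, cH replicates 3 and 4 alone were below non-cH (log2 -1.86 ± 0.34, edgeR adjusted p = 0.0115). As that fit leaves out its highest cH libraries, replicates 1 and 2, it is no support for a fall.

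**Figure D4:**
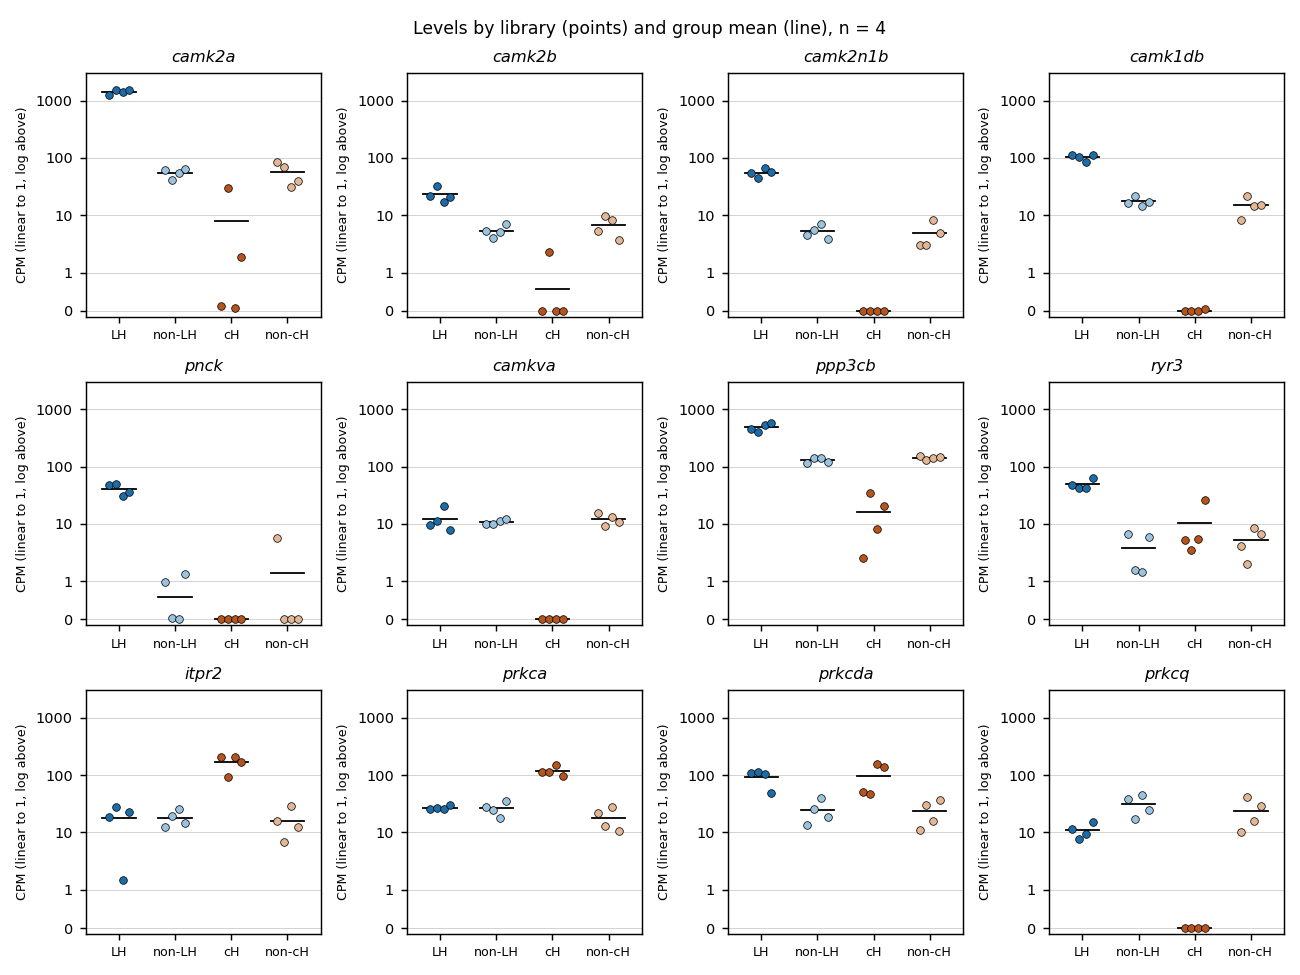
CPM of 12 members by library (points) with the group mean (line); the axis is linear up to 1 CPM and logarithmic above. LH stands apart for camk2a, camk2b, camk2n1b, camk1db, pnck, ppp3cb and ryr3, cH is the highest group for itpr2 and prkca, and the cH points of camk2n1b, pnck, camkva and prkcq are all at 0.

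Set side by side, 5 genes were higher in LH and lower in cH than in the negative cells of their own line: calm1a, calm3b, camk1db, camk2n1b and ppp3cb. They are 16.7% of the 30 genes higher in LH and 45.5% of the 11 lower in cH. Gene prkcq was lower in both, and 0 genes were called higher in both. Of the 50 members tested in both comparisons these are 10%, 2% and 0%, beside 0.751%, 1.08% and 0.531% of all 16767 genes tested in both. The 0 rests on the threshold. Gene prkcda had log2 differences of 1.95 in LH and 2.02 in cH, without overlap in either. In cH it missed the call (edgeR adjusted p = 0.0591). Among the 5, the cH calls of calm1a, camk2n1b and ppp3cb ended in some fits that left out a library. The cH calls of camk1db, camk2n1b and prkcq could only be lower, as non-cH alone carried them past the filter. The model of 16 libraries did not call calm1a or ppp3cb in LH. The 2 lines were compared by the difference of their differences, LH less non-LH minus cH less non-cH, in a model of all 16 libraries. Of 55 genes tested, 24 were called above and 2 below 0, against 7.54% and 4.52% of 20241 genes, or 12.1% in either direction, and the median was 2.15 against 0.26 for all genes. With cH replicates 1 and 2 set aside 35 were called, against 21.3% of all genes. The 2 called below 0 were itpr2 (log2 -3.45 ± 0.91, edgeR adjusted p = 0.0208) and prkca (-2.67 ± 0.46, edgeR adjusted p = 0.00116). Among the 24, calm3b had 2.33 ± 0.19 (edgeR adjusted p = 2.01e-06), calm2b 2.01 ± 0.19 (8.04e-06), camk2b1 2.96 ± 0.44 (0.00038), prkcbb 3.90 ± 0.72 (0.00204), nrgna 6.30 ± 1.13 (0.00162) and camk2a 7.49 ± 1.70 (0.00844). DESeq2 did not call camk2a and ryr2a in this comparison. Leaving out single libraries ended the calls of calm2a (edgeR adjusted p up to 0.0622), pnck (1), prkcea (0.0814), ryr1b (0.0506) and ryr2a (0.0748).

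Between the positive populations, edgeR called 22 of the 51 genes that it could test as higher in LH and 2 as higher in cH, against 7.55% and 6.03% of 17044 genes, or 13.6% in either direction. The median log2 difference was 2.06 over the 51, also with genes at 0 in cH set to their bounds, and 0.16 over all genes. Groups did not overlap for 42 of the 56, against 31.1% of all genes. With all 16 libraries in the model 32 were called, against 22.8%, and with cH replicates 1 and 2 set aside 36, against 23.7%. The inhibitor gene camk2n1b averaged 55.5 ± 8.72 CPM in LH (SD, n = 4) and, being undetected in cH, was at least 2447-fold higher in LH. For pnck the bound was 1788-fold and for camkva 542-fold, and camk1db had a ratio of counts of 6921 with an exact 95% binomial interval from 1915 to 57150. All of these passed the filter only through LH, so they could only be called higher in LH. Genes itpr2 and prkca were lower in LH, by 9.67-fold and 4.33-fold in the means (edgeR adjusted p = 0.0249 and 0.00216). The call of itpr2 ended without LH replicate 1 or 4 or cH replicate 3, at edgeR adjusted p up to 0.077. Other calls that ended when a library was left out included those of calm2a (edgeR adjusted p up to 0.111), camk2a (0.08), camk2n1a (0.0506), camk4 (0.0608) and prkcea (0.0575). DESeq2 did not call camk2a. These libraries also differ in line and reporter and share their LH and cH samples with the comparisons above.

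The negative fractions of the lines, the cells without reporter signal, gave 0 calls in 51 genes by edgeR, against 0.0689% of 18865 genes (0.0265% higher and 0.0424% lower). DESeq2 also gave 0, against 1.46% of all genes. With all 16 libraries in the model 0 were called, against 0.00988% of all genes. At an unadjusted p under 0.05 edgeR counted 5 genes: calm3b, camk4, prkcea, prkci and prkcz, with log2 differences (non-LH less non-cH) of -0.24, -0.40, 0.50, -0.41 and 0.43. Groups did not overlap for 3 of the 56 (ppp3ca, prkcea and prkci), against 6.50% of all genes. DESeq2 counted 6 genes at an unadjusted p under 0.05. These 5 and 6 genes are 9.8% and 11.8% of the 51, beside 8.38% and 10.1% of all genes tested. A p that misses the threshold does not show equal levels.

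Zebrafish carry many of these genes as a and b copies, and the ratio of copies, which gene length scales alike in every library, was set side by side across groups for the 16 of 17 pairs with a library of at least 10 counts in both. Reads of similar copies may be shared between them in counting, so each ratio is uncertain to that extent; no test was run. The log2 ratio of prkcbb to prkcba ran from 5.60 to 6.12 in LH, from 3.03 to 3.84 in non-LH and from 2.23 to 4.08 in non-cH. In 3 cH libraries with 10 counts of both it ran from 3.61 to 5.88. LH libraries thus lay above both negative groups. The ratio of calm1b to calm1a was -0.81 to -0.69 in LH, -1.93 to -1.33 in non-LH and -1.78 to -1.59 in non-cH. In cH this ratio ran from -2.81 to -0.73, which reaches into the LH range. That of camk2n1b to camk2n1a was -3.32 to -2.88 in LH, -5.50 to -4.70 in non-LH and -6.11 to -4.35 in non-cH. In these the b copy took a larger part in LH than in any negative library. The opposite held for others. The ratio of calm2b to calm2a was 1.06 to 1.34 in LH, against 1.71 to 1.85 in non-LH and 1.59 to 1.94 in non-cH. In cH it was lower still, at -0.39 to 0.83. For camk2d2 over camk2d1 it was 1.54 to 1.89 in LH, 2.99 to 4.25 in non-LH and 3.43 to 4.48 in non-cH. In the 3 cH libraries with 10 counts of both it ran from -1.45 to 1.85. A low ratio of these pairs was thus not particular to LH. The calcineurin ratios of ppp3ccb to ppp3cca and ppp3r1b to ppp3r1a were also lower in every LH than in every non-LH library, at -2.11 to -1.37 against -0.99 to -0.26, and -1.68 to -1.32 against -1.08 to -0.57. The copies camk2g1 and camk2g2 kept a log2 ratio near 0 in LH (-0.12 to 0.23) and non-LH (-0.11 to 0.33). In cH 7 of the 17 pairs had no ratio, and that of ppp3r1b to ppp3r1a ran from -4.18 to -1.12.

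**Figure D5:**
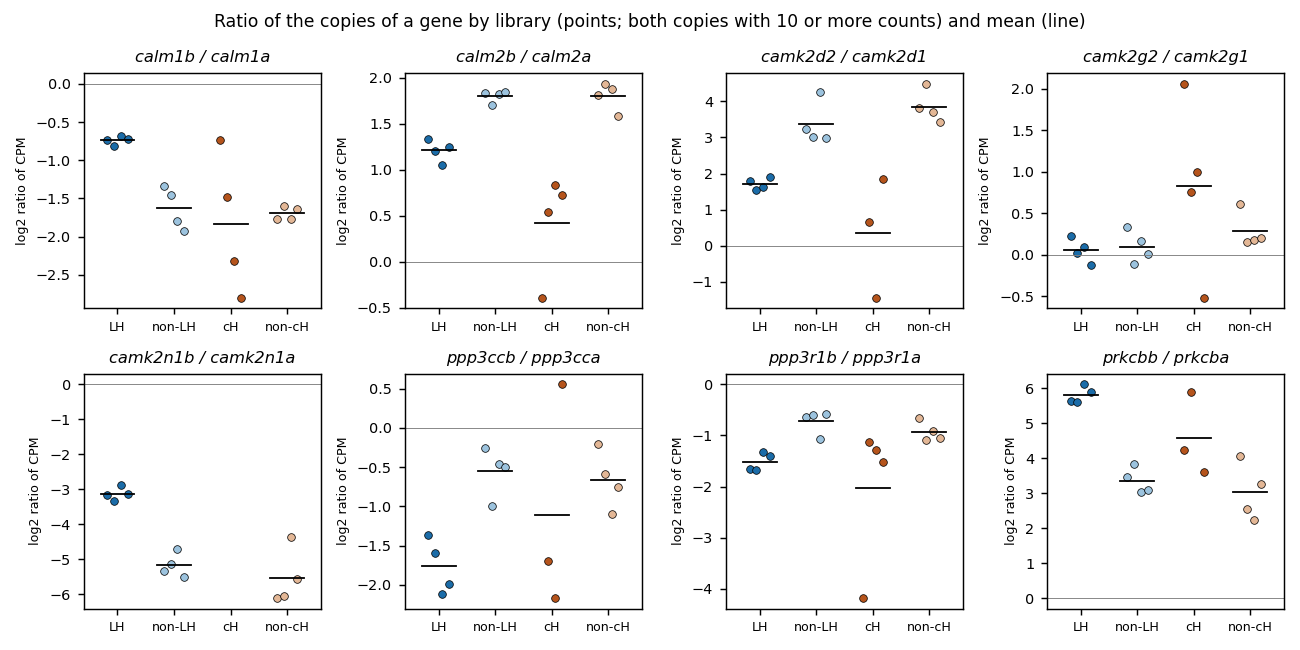
Log2 ratio of the CPM of the second to the first copy for 8 pairs, a point for each library in which both copies had at least 10 counts and a line at the group mean. LH points lie above both negative groups for calm1b/calm1a, camk2n1b/camk2n1a and prkcbb/prkcba. They lie below them for calm2b/calm2a, camk2d2/camk2d1, ppp3ccb/ppp3cca and ppp3r1b/ppp3r1a. The cH points of calm2b/calm2a lie below all LH points.

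Genes that act before or after the set were counted in 4 lists. Of 27 genes tested for Gq proteins, phospholipase C and diacylglycerol kinases, 8 were higher and 0 lower in LH by edgeR, with a median log2 difference of 0.57. They included plcb1, a phospholipase C that Gq activates, at 68 ± 14.3 CPM against 11.7 ± 3.28, and the diacylglycerol kinase genes dgkh (205 ± 37.3 against 58.8 ± 15) and dgki (118 ± 16 against 42.1 ± 9.53; SD, n = 4). In cH, dgkh (11.8 ± 7.92 against 79 ± 15.5 CPM) and dgki (0.0886 ± 0.177 against 69.1 ± 8.36) were lower and the phospholipase C gene plcd3a was higher by 2.98 ± 0.55 on the log2 scale, the only calls among 25 tested. Among pumps, exchangers and store-operated channel genes, 12 of 33 were higher and 3 lower in LH. The endoplasmic reticulum pump gene atp2a3 was higher both in LH (329 ± 18.6 against 41.5 ± 12.6 CPM, log2 2.99 ± 0.22) and in cH (194 ± 61 against 32.7 ± 16.3, log2 2.54 ± 0.43). The exchanger gene slc8a4a and the pump gene atp2a2a rose in LH by 2.01 and 1.77. In cH, 2 of 31 were higher and 6 lower, the plasma membrane pump gene atp2b2 being lower (40 ± 19.9 against 298 ± 82.7 CPM) and the pump gene atp2a2b higher (264 ± 112 against 83.8 ± 3.81).

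Of 34 genes for other EF-hand calcium-binding proteins, 10 were higher and 5 lower in LH, with a median log2 difference of 0.03. Gene ncalda, for the neuronal calcium sensor neurocalcin, was higher in LH (1267 ± 167 against 335 ± 19.6 CPM) and in cH (755 ± 144 against 367 ± 31.2). Genes pvalb7, a parvalbumin, and vsnl1a, a visinin-like sensor, rose in LH by 2.85 and 2.59. In cH, 2 of 30 were higher and 2 lower; s100b, also in the radial glia list, was at 563 ± 264 against 27 ± 19.1 CPM, and vsnl1b at 11.7 ± 8.26 against 84.8 ± 11.9 (SD, n = 4). Of 42 genes for kinase C substrates, calmodulin-binding and calcineurin-linked proteins, 6 were higher and 6 lower in LH, with a median log2 difference of -0.03. The adducin gene add3b (157 ± 4.62 against 11.3 ± 6.26 CPM) and rasgrf2b, for a calmodulin-binding Ras exchange factor (11.7 ± 1.45 against 1.3 ± 0.239), were higher, and caska, for a CaM kinase-like scaffold protein, was lower (67 ± 18.9 against 147 ± 12.7). In cH, 3 of 42 were higher and 8 lower. There the kinase C substrate gene marcksb was at 144 ± 52.2 against 1270 ± 66.1 CPM, the CREB coactivator gene crtc1b was at 0 against 14.2 ± 3.03, and add3a was at 1028 ± 340 against 146 ± 23.1. The lists' calls in LH stand beside the 7.14% higher and 6.24% lower among all genes, and those in cH beside 5.05% and 6.85%. In cH the calls of the phospholipase C list (4% higher, 8% lower) and of the EF-hand list (6.67% each way) were near those shares of all genes. The higher calls of the pump list (6.45%, with 19.4% lower) and of the kinase C substrate list (7.14%, with 19% lower) were also near 5.05%.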

How the data were processed

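Sorted brain cells gave 16 RNA-seq libraries. Per the labels' protocols, poly(A) RNA of sorted cells went through SMART-seq v2 cDNA synthesis and Nextera XT library preparation. FastQC, STAR and the build GRCz11 are named in the submitters' processing notes. How reads were counted, with or without strand and with what rule for repeated sequence, is not given in the sources used here. The authors deposited raw counts per gene, with no normalisation. Of 47038 rows, 9 without a usable gene name or count were left out, and rows of a symbol were summed (30565 symbols), because reads of repeated rows can be split. Of the counts from 1 to 20, 65.9% are even.

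edgeR 4.0.16 (R 4.3.3) was run on all symbols: TMM scaling, filterByExpr (minimum count 10, minimum total 15), robust quasi-likelihood F test, two-sided, Benjamini-Hochberg adjustment over all genes tested, threshold 0.05. The pairwise fits hold the 8 libraries compared, since spread differs between groups, and the difference of differences holds all 16. CPM use TMM factors of all 16 libraries; SE was derived from each log2 fold change and its F statistic. Exact permutation tests of CPM (two-sided, scipy 1.17.1) give 0.0286 wherever 2 groups do not overlap, the smallest p that 4 against 4 allow. The procedure was tested on simulated data.

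Alternatives were DESeq2 1.42.0, library totals, other filters, all 16 libraries, a block on replicate number, rows as deposited, each library left out, and cH replicates 1 and 2 set aside. Values in every library are given for up to 8 called genes per direction with the largest change, no overlap and at least 10 CPM in the higher group (up to 4 in LH against cH and in the difference of differences), and for a fixed set (calmodulin genes, nrgna, nrgnb, prkcbb, prkcba, ryr3, camk2a, camk4, ppp3ca, itpr1a, itpr1b), of which nrgnb is not used here. Genes prkcda, ryr1b and ryr2a in cH were chosen after their values were seen, and for other lists the 3 genes with the smallest p are named. The members, lists and rule were chosen with earlier results of these data known. Groups follow the labels, which call the replicates biological. No coordinates or sequences are given, and 1 member is counted but not reported here. Gene names are those of the table; synonyms in the lists were matched through a RefSeq table of assembly GRCz12tu.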

Additional observations from a re-analysis of the deposited data

Results flagged for a closer look

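The 26 genes chosen by rule for values in every library form 104 sets of 4 libraries. Of these sets, 10 held a library with a gap to its nearest neighbour beyond Dixon's 95% limit. For 3 of them (camk1db and camk2b in cH, pnck in non-cH) the other 3 libraries were at 0, where the limit is passed whatever the value. For independent, normally distributed sets, chance would give about 1 in 20 of the 96 remaining sets with a spread, or 4.8, and 7 were found. These sets share the same 16 libraries, and many of the genes were chosen for groups without overlap. The 2 numbers therefore cannot be weighed against each other. Of all 10, those in cH were calm2a at 330 CPM in replicate 1, camk2a at 29.9, camk2b at 2.3 and itpr1b at 191 in replicate 2, and ryr3 at 26.3 and camk1db at 0.0451 in replicate 4. In the other groups they were calm1b at 281 CPM in LH replicate 2, prkcbp1l at 76.1 in LH replicate 3, and calm3b at 1573 and pnck at 5.68 in non-cH replicate 1.

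The LH and cH contrasts differed by the test of the difference itself (edgeR, 16 libraries) for these genes, in log2 units: camk1db by 12.34, camk2n1b by 13.95, camkva by 12.03 and pnck by 14.85, with itpr2 at -3.45 and prkca at -2.67. The first 4 have cH libraries at or near 0, so their fitted sizes depend on the prior count and are no measure of size. The call of pnck ended without non-LH replicate 1, 2 or 4 and without non-cH replicate 1, where its adjusted p was 1.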

How the results depend on the processing

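The counts of genes called (32 in LH, 13 in cH, 24 between LH and cH, 0 between the negative fractions and 26 in the difference of differences) stayed within 1.5 times under DESeq2, library totals, both other filters and rows as deposited. Among all genes DESeq2 called more: 19.3% in LH, 20.6% in cH, 24% in LH against cH and 20.5% in the difference of differences. There edgeR called 13.4%, 11.9%, 13.6% and 12.1%. With all 16 libraries in the model the counts were 11 in LH and 23 in cH. With cH replicates 1 and 2 set aside 28 were called in cH, 36 in LH against cH and 35 in the difference of differences. Leaving out each library gave 28 to 32 calls in LH, 8 to 20 in cH, 18 to 29 in LH against cH, 0 in the negative fractions and 22 to 30 in the difference of differences. Of all genes, those fits called 9.69% to 11.8% in LH, 4.31% to 14.6% in cH and 9.82% to 17.2% in LH against cH. The shares were 0.0258% to 0.0566% in the negative fractions and 8.97% to 16.1% in the difference of differences. With a replicate block the counts in that order were 29, 4, 9, 0 and 24, against 10.5%, 2.80%, 3.26%, 0.0212% and 9.58% of all genes. In cH the block ended the calls of calm1a, camk1db, camk1ga, camk2d2, camk2n1b, camkva, itpr1a, ppp3cb and prkcq. Between LH and cH, calls that it ended included those of camk2n1b, pnck, camkva and itpr2. Same-numbered libraries deviated with r from -0.031 to 0.079 across the pairs of groups, and not every library correlated best with its own number. Correlations this weak cannot decide whether same-numbered libraries are paired. Whether same-numbered positive and negative libraries came from the same brains is not given in the sources used here.

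Signs of 4 uncalled values turned: itpr1a in LH from -0.30 to 0.12 and 0.09 (without LH replicate 2 or 3) and 0.06 (without non-LH replicate 3); in cH, prkcbb from -0.12 to 0.20 and 0.16 (without cH replicate 3 or 4), ryr3 from 0.90 to -0.17 (without cH replicate 4), and ppp3ca from 0.11 to -0.50 (replicate block), -0.84 (without cH replicate 2) and -1.54 (cH replicates 1 and 2 set aside). Over all fits that left out a library these values ran from -2.45 to 0.12, -0.94 to 0.20, -0.17 to 1.24 and -0.84 to 0.44. The causes were not tested. Scaling by totals moved the median of all genes by -0.16 in cH, 0.16 in LH against cH and 0.13 in the difference of differences. Limits are the spread of cH libraries, low counts there, and 4 libraries a group.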
